A study of Homo sapiens with 9 samples.

Results

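Transcripts of 7 transcription factors that mark luminal cells of the prostate were followed in LNCaP cells: HOXB13, FOXA1, GATA2, GATA3, GRHL2, SPDEF and EHF. They were chosen by name as factors of luminal identity, with earlier results of these data known. All 7 had at least 1 probe set annotated to that symbol alone, out of 19775 genes so named on the array. Together they had 22 probe sets, and a gene is represented by whichever of its probe sets was brightest on average across the 9 arrays. LNCaP is an androgen-responsive cell line derived from a prostate tumour, and Affymetrix U133 Plus 2.0 arrays measured total RNA, with 1 array in each of 9 groups. In the inhibitor series, untransfected cells were kept in 10% serum (steady state), or held for 48 h in 5% charcoal-stripped serum to remove androgen (vehicle). Deprived cells of this series were also given 100 nM dihydrotestosterone (DHT) for 16 h, alone or after 2 h with 100 µM etoposide or 100 µM merbarone. In the shRNA series, cells received a GFP vector with sh-control or sh-TOP2B, were deprived of androgen, were given vehicle or 100 nM DHT for 16 h, and were sorted for GFP. The sorted cells are those that took up the vector, and all 4 of their arrays share the transfection and the sort.

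Luminal cells line the lumen of prostate glands and secrete its fluid, and their identity is held by a set of DNA-binding proteins that act with the hormone receptor on the same enhancers. FOXA1 is a forkhead pioneer factor that binds compacted chromatin, GATA2 and GATA3 are zinc finger proteins, and HOXB13 is a posterior homeobox factor of prostate development. GRHL2 is a grainyhead-like activator of epithelial junction genes, and SPDEF and EHF are ETS factors of secretory and epithelial differentiation. Topoisomerase II beta, the product of TOP2B, passes DNA strands through each other. Etoposide traps topoisomerase II on cut DNA, whereas merbarone blocks its catalytic cycle without trapping it.

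The promoters of FOXA1, SPDEF and EHF are shown because each holds a forkhead match, the letters of the family to which FOXA1 belongs, and each was above the median of all probe sets on every array. RefSeq windows of 300 bases (assembly GRCh38.p14, 250 bases before a start and 50 from it) were searched for 5 of the 7 members, GATA2, GATA3, SPDEF, EHF and FOXA1. No window of HOXB13 or GRHL2 was searched, so their absence here is not a result. They are printed 5′ to 3′ on the strand of the gene, and capitals mark every match to the letters searched, on either strand. The windows are chr14:37595200-37595499 (minus strand) for FOXA1, chr6:34556280-34556579 (minus strand) for SPDEF and chr11:34632316-34632615 (plus strand), 1 of 2 windows of EHF.
FOXA1: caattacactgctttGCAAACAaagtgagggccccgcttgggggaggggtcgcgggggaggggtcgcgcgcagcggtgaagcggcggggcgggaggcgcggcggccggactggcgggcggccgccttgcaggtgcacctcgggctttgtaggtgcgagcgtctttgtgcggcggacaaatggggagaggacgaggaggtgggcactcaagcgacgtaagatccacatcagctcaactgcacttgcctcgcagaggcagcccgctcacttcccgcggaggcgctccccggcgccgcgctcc
SPDEF: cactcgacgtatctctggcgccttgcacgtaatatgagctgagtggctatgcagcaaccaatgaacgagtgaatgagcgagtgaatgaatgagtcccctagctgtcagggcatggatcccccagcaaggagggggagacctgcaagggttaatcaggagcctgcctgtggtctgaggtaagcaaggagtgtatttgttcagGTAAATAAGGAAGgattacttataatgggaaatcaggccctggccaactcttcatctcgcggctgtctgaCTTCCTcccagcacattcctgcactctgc
EHF: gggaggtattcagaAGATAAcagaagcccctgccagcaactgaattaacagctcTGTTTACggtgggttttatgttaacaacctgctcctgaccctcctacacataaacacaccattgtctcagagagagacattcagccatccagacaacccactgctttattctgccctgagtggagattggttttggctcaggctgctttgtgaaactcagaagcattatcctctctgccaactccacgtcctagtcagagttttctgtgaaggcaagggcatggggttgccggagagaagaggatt
Forkhead letters were searched on both strands as TGTTTAC (in 3.42% of 35116 such windows of the table), TATTTAC (in 2.67%) and TGTTTGC (in 3.89%), and 9.57% of windows held at least 1 of them. FOXA1 holds TGTTTGC on the opposite strand at position -235 from the start, EHF holds TGTTTAC at -196, and SPDEF holds TATTTAC on the opposite strand at -49. Of the windows not printed, 1 of GATA3 also holds TGTTTGC. The GATA letters searched were AGATAA (in 10.3% of windows) and TGATAA (in 7.53%), and the EHF window printed holds AGATAA at -236. The ETS letters searched were AGGAAG (in 33.6%) and CCGGAAG (in 10.3%). SPDEF holds AGGAAG at -42, directly after its forkhead match, and again on the opposite strand at 21. The printed windows hold no match to the steroid receptor letters AGAACA (in 14.8% of windows), the HOXB13 letters CCAATAAA (in 0.934%) or the grainyhead letters AACCGGTT (in 0.134%). A match is a description of letters and not a measured binding site.

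Values are log2 RMA levels, and a level below the median of all probe sets on its array (5.61 to 5.72) is called dim. The beta-actin 3′ minus 5′ control difference, a sign of RNA integrity, was 0.38 to 0.70 on inhibitor-series arrays and 2.38 to 3.09 on shRNA-series arrays, so levels are compared within a series only. GAPDH behaved likewise (0.17 to 0.25 against 0.52 to 0.64). Genes with a mean level under the 40th percentile were not tested, which left 11865 genes and 6 of the 7 members. TOP2B itself was 10.54 (vehicle) and 10.87 (DHT) with sh-control, and 10.09 and 10.01 with sh-TOP2B. Its mean difference of -0.66 ± 0.12 (SE) did not pass (limma adjusted p = 0.0934). Of 5 luminal markers measured, KRT18 lay between 12.05 and 13.14 and KRT8 between 10.41 and 11.54, while the hormone-responsive KLK3 (5.56 to 13.82), KLK2 (dim on 4 arrays, up to 12.21) and ACP3 (7.32 to 9.78) ranged widely. The basal markers KRT14 and KRT15 were dim on all 9 arrays and KRT5 on 8, and of 5 neuroendocrine markers CHGA, CHGB and INSM1 were dim on all 9. SYP was dim on 2 arrays (5.35 to 6.53), and ENO2 on none, at 7.58 to 8.40 in the inhibitor series and 9.51 to 10.22 in the shRNA series. Of 6 stromal markers, COL1A1 (8.05 to 9.63), ACTA2 (7.33 to 9.40), VIM (6.77 to 8.46) and TAGLN (6.09 to 6.53) were never dim, DES was dim on 2 arrays and COL1A2 was dim throughout. In bulk RNA, fewer cells with a transcript and less of it per cell cannot be told apart.

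Of the 7 factors, 6 were well above the array median in every condition, and GATA3 was not. EHF was the brightest and varied least of those 6 in the inhibitor series, with levels of 12.90 in steady state, 12.72 with vehicle, 12.78 with DHT, 12.84 with etoposide and DHT, and 12.32 with merbarone and DHT. In the shRNA series EHF stood at 12.68 (vehicle) and 12.75 (DHT) with sh-control, and at 12.70 and 12.82 with sh-TOP2B. Among neighbours in the order of levels, the merbarone array alone stood apart, 0.41 below vehicle. The 95% margin for a difference of 2 arrays of this gene was 0.17. Such margins, here and below, are not adjusted for the number of genes or of gaps. Their spread is borrowed from how far the DHT effects of untransfected, sh-control and sh-TOP2B cells differ. Neighbours were found by sorting the levels, so a gap beyond the margin is a description and not a test result. Steady state and vehicle, not neighbours in that order, differed by 0.18, which did not pass the test over all genes given below.

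HOXB13, in the same order of the inhibitor series, had levels of 11.26, 11.27, 11.09, 10.27 and 9.56. The first 3 did not differ beyond the margin of 0.38, and etoposide and merbarone each lay further down, by 0.82 and 0.71. The etoposide difference from DHT alone did not pass the test over all genes. With sh-control HOXB13 was 10.52 (vehicle) and 10.02 (DHT), and with sh-TOP2B 10.55 and 10.06. The vehicle arrays were thus the higher ones in both vectors, and the vectors differed by at most 0.04.

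FOXA1 stood at 10.54 in steady state, 10.70 with vehicle, 10.58 with DHT, 10.46 with etoposide and 9.81 with merbarone. The first 4 neighbours did not differ beyond the margin of 0.33, and merbarone lay 0.65 under etoposide. Its 4 shRNA arrays held 9.84 and 9.89 (sh-control, vehicle and DHT) and 9.90 and 9.83 (sh-TOP2B), a range of 0.08.

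GATA2 had values of 10.10, 9.74, 9.58, 9.38 and 8.99 over the inhibitor series in the order above, with no gap between neighbours beyond the margin of 0.46. The range over that series, 1.11, was beyond the margin. With sh-control GATA2 was 10.73 (vehicle) and 10.16 (DHT), and with sh-TOP2B 10.68 and 10.03. Both DHT arrays lay below both vehicle arrays, with a gap of 0.51 between the nearest.

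GRHL2, measured by a single probe set, had levels of 10.67, 10.75, 10.88, 10.36 and 9.76 over the inhibitor series. Etoposide lay 0.32 below the lowest of the 3 arrays without an inhibitor, beyond the margin of 0.29, and merbarone lay 0.59 below etoposide. The etoposide difference from DHT alone did not pass the test over all genes. The shRNA arrays of GRHL2 read 11.83 and 12.20 with sh-control (vehicle, DHT) and 11.76 and 12.01 with sh-TOP2B, with no neighbours apart beyond the margin of 0.29. Arrays that were not neighbours did differ beyond it, by 0.37 between DHT and vehicle with sh-control. The DHT effect of GRHL2 did not pass in the fit of all pairs given below.

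SPDEF read 10.04 in steady state, 9.44 with vehicle, 9.79 with DHT, 9.88 with etoposide and 9.29 with merbarone. No neighbours in the order of levels of that series differed beyond the margin of 0.49, though its range was 0.75. SPDEF with sh-control was 8.65 (vehicle) and 9.26 (DHT), and with sh-TOP2B 8.30 and 9.17, so both DHT arrays were above both vehicle arrays, by 0.52 at the nearest.

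GATA3, which specifies luminal cells of the breast and takes part in prostate growth, was dim on all 9 arrays, at 3.38 to 3.75 (median probe-set level of the arrays 5.61 or more). All 3 of its probe sets were dim throughout, with a lowest level of 2.33. GATA3 therefore entered no test, and no difference is given for it.

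**Figure D1:**
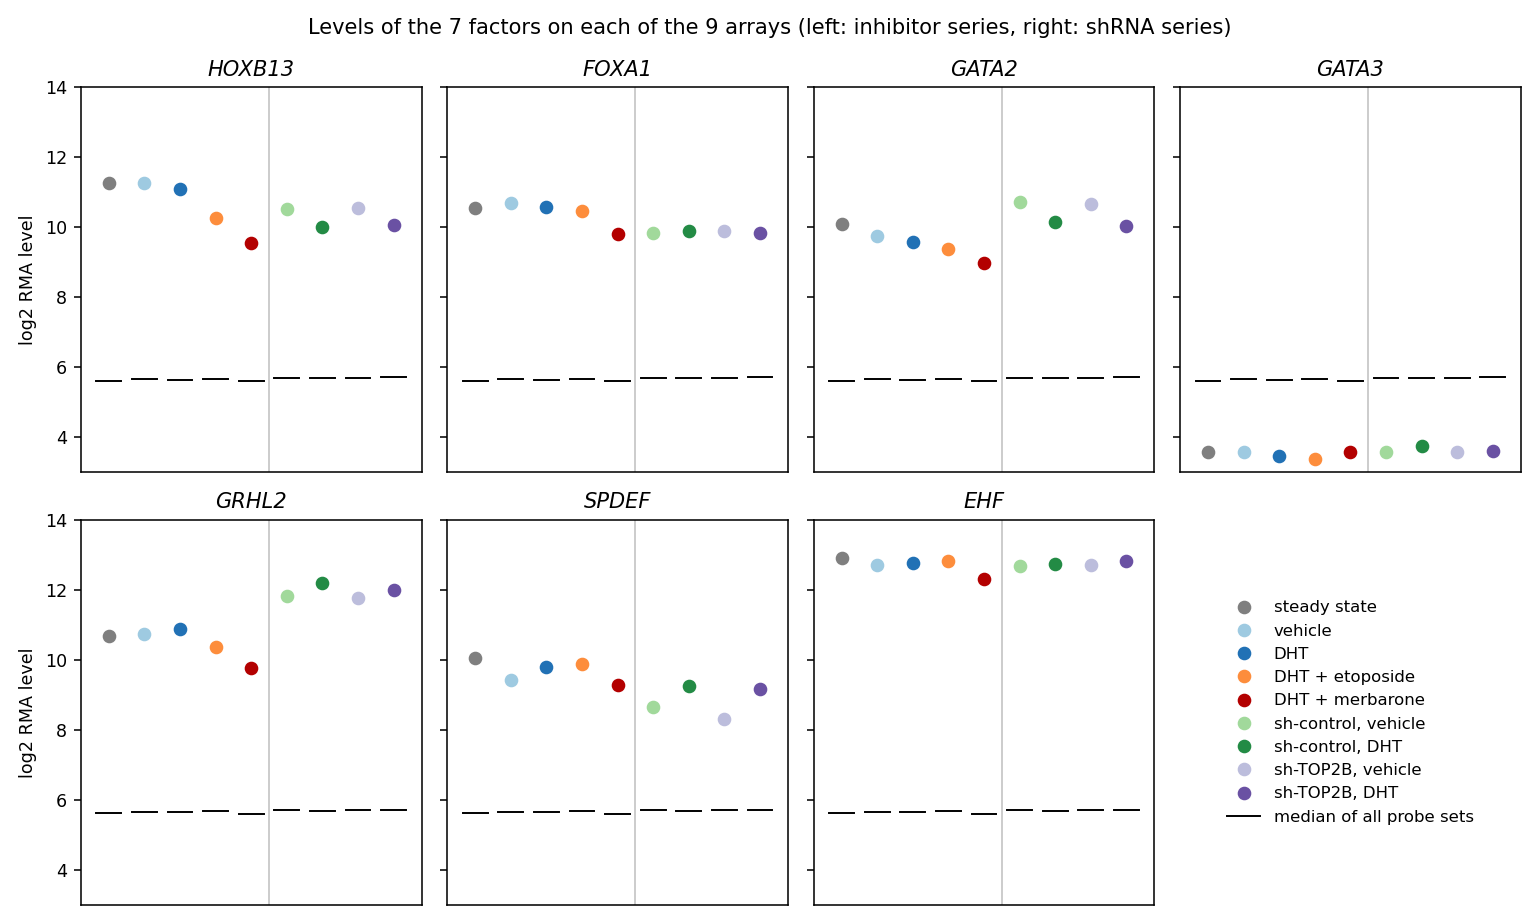
Level of each of the 7 factors (y axis, log2 RMA level) on each of the 9 arrays (coloured points, inhibitor series left of the grey line and shRNA series right), with the median of all probe sets on that array as a black dash. HOXB13, FOXA1, GATA2, GRHL2, SPDEF and EHF lie above the dashes on every array, GATA3 lies under them, and the merbarone point is the lowest of the inhibitor series for those 6.

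The first comparison asks how the factors responded to DHT, with the untransfected, sh-control and sh-TOP2B cells as 3 pairs. SPDEF, GRHL2 and EHF were higher with DHT in each of the 3 pairs, HOXB13 and GATA2 were lower in each, and FOXA1 went both ways. Over all tested genes, 39.9% had the same sign in all 3 pairs. None of the 6 factors passed the test (limma with pairs as blocks, Benjamini-Hochberg over all genes, threshold 0.05), where 0.447% of genes were called, and 4 had an unadjusted p under 0.05, as did 19.3% of genes. SPDEF had differences of 0.35, 0.62 and 0.87 in the untransfected, sh-control and sh-TOP2B pairs, with a mean of 0.61 ± 0.12 (SE, 3 pairs; limma adjusted p = 0.0871). GRHL2 had 0.14, 0.37 and 0.25, with a mean of 0.25 ± 0.07 (limma adjusted p = 0.147). EHF, at 0.06, 0.07 and 0.12, had a mean of 0.08 with a 95% interval from -0.02 to 0.18.

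On the lower side, GATA2 had differences of -0.16, -0.57 and -0.64 in the same order, with a mean of -0.46 ± 0.11 (limma adjusted p = 0.123). HOXB13 had -0.18, -0.51 and -0.50, with a mean of -0.39 ± 0.09 (limma adjusted p = 0.110). For both, the untransfected pair moved least. FOXA1 had -0.12, 0.05 and -0.08, with a mean of -0.05 and a 95% interval from -0.24 to 0.14. KLK3, the gene of prostate-specific antigen and a direct androgen target, rose by 5.10 ± 0.11 in the same fit (limma adjusted p = 1.33e-05), beside which the largest mean among the factors was 0.61.

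The calls differed without the untransfected pair. In the 4 sorted arrays alone, HOXB13 (-0.50, limma adjusted p = 0.000807), GATA2 (-0.60, limma adjusted p = 0.000158), GRHL2 (0.31, limma adjusted p = 0.00299) and SPDEF (0.74, limma adjusted p = 0.000671) all passed, while FOXA1 (-0.01) and EHF (0.10) did not. That fit called 22.1% of all genes, 9.81% higher and 12.3% lower. Most of its 13.46 degrees of freedom were borrowed from all genes as the prior. Its spread is how far the sh-control and sh-TOP2B pairs differ in their DHT effects, not a spread between replicates. The actin 3′ minus 5′ difference also moved with DHT in those pairs (2.67 against 3.09 and 2.38 against 2.69), and its part in these differences was not tested. Probe sets of a gene ran the same way for the 2 of HOXB13 and the 2 of GATA2 that were never dim, all lower in all 3 pairs, and for 4 of 5 of SPDEF, higher in all 3. Of the 6 probe sets of EHF only 2 were higher in all 3 pairs, and 4 were lower in the untransfected pair. Neither of the 2 of FOXA1 kept 1 sign.

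**Figure D2:**
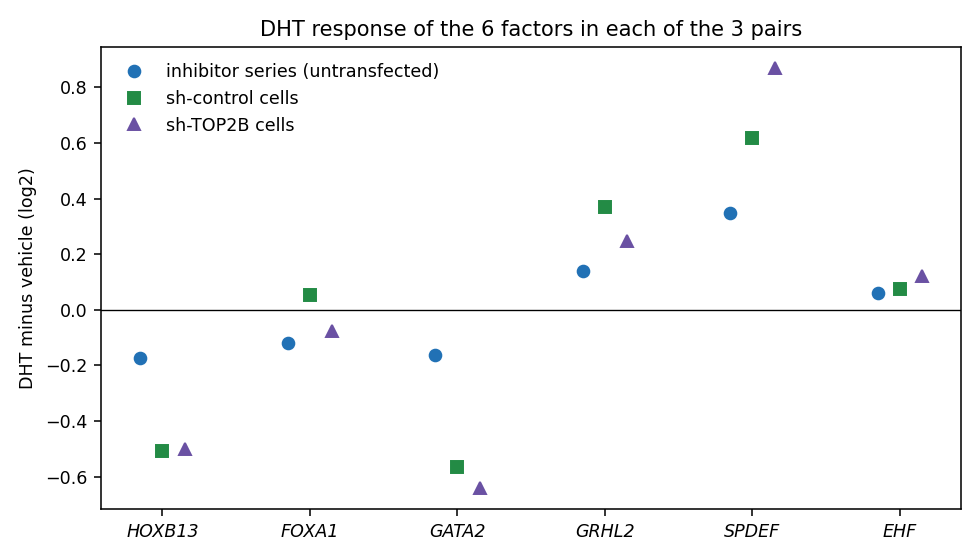
DHT minus vehicle (y axis, log2) for the 6 factors above the array median, with 1 point for each of the untransfected, sh-control and sh-TOP2B pairs. HOXB13 and GATA2 lie below 0 and GRHL2, SPDEF and EHF above 0 in all 3 pairs, and the untransfected point is nearest to 0 for HOXB13, GATA2, GRHL2, SPDEF and EHF.

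The comparison of merbarone and DHT with DHT alone gave calls for 4 of the 6 factors: HOXB13, FOXA1, GRHL2 and EHF fell. HOXB13 went from 11.09 to 9.56, a fall of 1.53 ± 0.16 (SE) or 2.89-fold (limma adjusted p = 0.00108). GRHL2 went from 10.88 to 9.76, a fall of 1.12 ± 0.12 or 2.18-fold (limma adjusted p = 0.00127). FOXA1 fell by 0.76 ± 0.14, from 10.58 to 9.81, or 1.70-fold (limma adjusted p = 0.00712). EHF fell by 0.46 ± 0.07, from 12.78 to 12.32, or 1.38-fold (limma adjusted p = 0.00455). GATA2 (-0.59, 95% interval -1.05 to -0.12, limma adjusted p = 0.0611) and SPDEF (-0.49, interval -0.98 to 0.0010, limma adjusted p = 0.121) were lower without passing, and GATA2 was among the 5 of 6 with an unadjusted p under 0.05, as were 41.4% of genes. The median over the 6 factors was -0.68, beside 0 over all genes.

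With merbarone, 31.7% of all genes were called and 16.3% were called lower, so 4 of 6 stands beside a wide response. Of 4 stromal markers tested, ACTA2 rose by 1.29, from 8.11 to 9.40, while COL1A1 (0.58), TAGLN (0.10) and VIM (-0.20) did not pass, and 3 of 5 luminal markers fell (KLK2, KLK3 and ACP3). The summed stromal level was 10.02 with DHT and 10.57 with merbarone, and its part in the factors' differences was not tested. The merbarone array was the lowest of the 5 inhibitor-series arrays for all 6 factors, as for 28.3% of genes. Against the vehicle array, which had neither DHT nor inhibitor, the merbarone values differed by -1.71 for HOXB13, -0.98 for GRHL2, -0.88 for FOXA1, -0.75 for GATA2, -0.41 for EHF and -0.14 for SPDEF. The SPDEF value depends on the probe set, as its other probe sets read -1.05, -0.92, 0.06 and -0.05 against vehicle. The comparison with DHT alone is of 1 array with 1, and its SE is borrowed from how far the 3 DHT effects differ. With arrays centred on 11 housekeeping genes, a setting chosen after seeing the data that moves the median of all genes to 0.29, EHF stood at -0.18 and did not pass (limma adjusted p = 0.177), whereas HOXB13, GRHL2 and FOXA1 passed (FOXA1 at -0.48, limma adjusted p = 0.0498). TOP2B itself fell by 0.54 with merbarone against DHT alone (limma adjusted p = 0.0499), and was at -0.63 with etoposide (limma adjusted p = 0.170).

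Other probe sets of the same genes were read beside the brightest ones. Of the 18 probe sets of these 6 genes that were dim on no array, 16 were lower with merbarone, 1 of SPDEF was level at 0 and 1 of EHF read 0.01. Over all tested genes the median difference was 0. Probe sets of the same gene are not separate evidence, and SPDEF and EHF hold 5 and 6 of the 18. The second probe set of HOXB13 read -0.81 and that of FOXA1 -2.29. For SPDEF the 5 probe sets split: -0.49, -1.12 and -1.11 for the 3 brightest, and 0 and -0.05 for the other two, which hardly moved on any array of that series (ranges of 0.14 and 0.09). With the median over probe sets SPDEF fell by 1.11 and passed (limma adjusted p = 0.0272), so its call depends on the probe set. The same setting gave EHF -0.38, which did not pass (limma adjusted p = 0.214), and its 6 probe sets ran from -0.77 to 0.01.

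**Figure D3:**
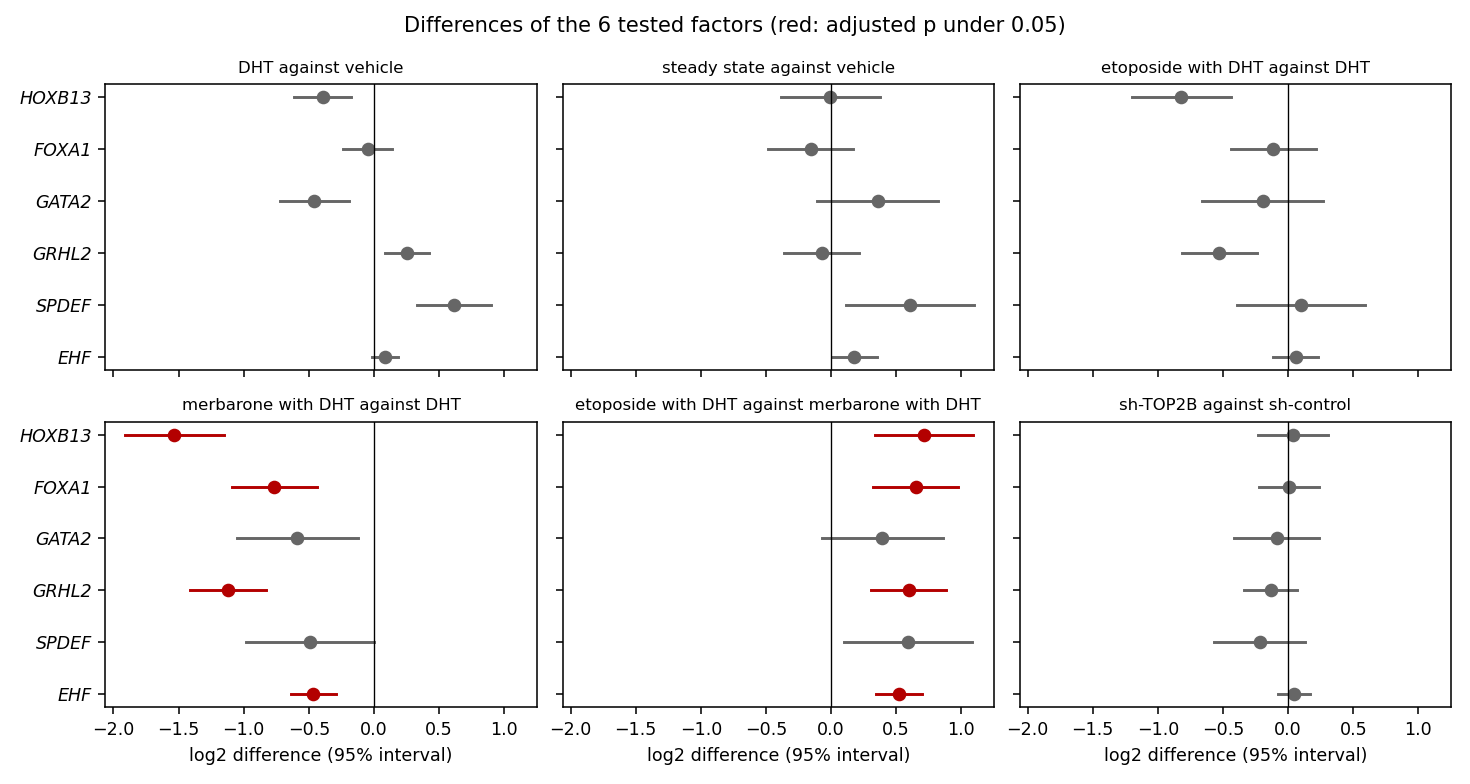
Log2 difference of each of the 6 tested factors (x axis, points) with its 95% interval (lines) in 6 comparisons, red where the adjusted p was under 0.05. HOXB13, FOXA1, GRHL2 and EHF are red in both panels that involve merbarone, at -1.53 to -0.46 against DHT alone, and no factor is red in the other panels.

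With etoposide and DHT none of the 6 factors passed against DHT alone. HOXB13 was at -0.82 ± 0.16 (limma adjusted p = 0.0780), from 11.09 to 10.27, and GRHL2 at -0.53 ± 0.12 (limma adjusted p = 0.126), from 10.88 to 10.36. Neither passed over all genes, where 1.05% were called. These 2 of 6 had an unadjusted p under 0.05, as did 14.6% of genes. FOXA1 (-0.12), GATA2 (-0.20), SPDEF (0.10) and EHF (0.06) had 95% intervals that held 0, the widest from -0.39 to 0.59 for SPDEF. With the spread taken from the sorted pairs alone, HOXB13 and GRHL2 both passed at the same sizes, in a fit that called 1336 genes. That spread comes from arrays of the other series, so these calls depend on the spread used.

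Both probe sets of HOXB13 were lower with etoposide (-0.82 and -0.57), and the single one of GRHL2 was too. EHF had 1 probe set, the dimmest of 6, at 0.91. The second probe set of FOXA1 read 0.34, opposite to the first. That of GATA2 read -0.49 with etoposide, further down than with merbarone (-0.26). KLK3 fell by 3.34 on the same array.

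Etoposide and merbarone were given at the same dose and time, and both arrays also had DHT, so the 6 factors could be set against each other directly. All 6 were higher with etoposide than with merbarone, and HOXB13, FOXA1, GRHL2 and EHF passed, where 13.5% of all genes were called higher and 32.6% in either direction. An unadjusted p under 0.05 was reached by 5 of 6, and by 42.5% of genes. HOXB13 differed by 0.71 ± 0.16 (limma adjusted p = 0.0159), FOXA1 by 0.65 ± 0.14 (limma adjusted p = 0.0131) and GRHL2 by 0.59 ± 0.12 (limma adjusted p = 0.0120). EHF differed by 0.52 ± 0.07 (limma adjusted p = 0.00323). SPDEF was at 0.59, with a 95% interval from 0.10 to 1.08 (limma adjusted p = 0.0704), and GATA2 at 0.39, from -0.07 to 0.86 (limma adjusted p = 0.178). On the brightest probe sets, the differences of the 6 factors lay between 0.39 and 0.71. Over all their probe sets that were never dim, values ran from -0.22 (the second of GATA2) to 2.63 (the second of FOXA1). With the median over probe sets, HOXB13 (0.47, limma adjusted p = 0.0654) and EHF (0.47, limma adjusted p = 0.132) no longer passed, and GATA2 took the other sign (-0.22), while SPDEF passed (1.00, limma adjusted p = 0.0397).

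**Figure D4:**
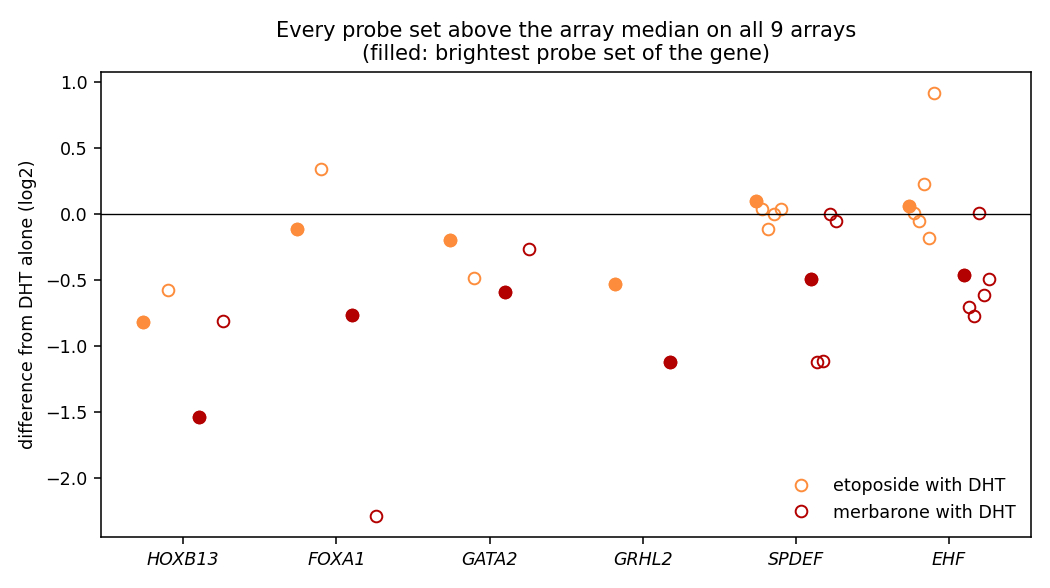
Difference from DHT alone (y axis, log2) for every probe set of the 6 factors that was above the array median on all 9 arrays, with etoposide (orange) and merbarone (red), filled for the brightest probe set of a gene. Merbarone points reach from -2.29 to 0.01 and etoposide points from -0.82 to 0.91.

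None of the 6 factors passed between cells in full serum and deprived cells, where 28.1% of all genes were called. HOXB13 read 11.26 against 11.27 and had a 95% interval from -0.38 to 0.37. SPDEF was 0.61 ± 0.21 higher in steady state (limma adjusted p = 0.0708) and GATA2 0.36 ± 0.19 (limma adjusted p = 0.230). EHF (0.18), FOXA1 (-0.16) and GRHL2 (-0.07) did not pass either, and 2 of the 6 factors had an unadjusted p under 0.05, as did 39.7% of genes. At the same sizes, SPDEF and GATA2 both passed with the spread of the sorted pairs alone. That spread comes from arrays of the other series, so these calls depend on the spread used. With arrays centred on housekeeping genes, which moved the median of all genes from 0.04 to 0.19, SPDEF (0.76) and EHF (0.33) passed.

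Against DHT alone, steady state gave 0 of 6 calls, beside 24.8% of genes called, and GATA2 alone had an unadjusted p under 0.05 (37% of genes). GATA2 was 0.52 ± 0.19 higher in serum than with DHT (limma adjusted p = 0.10). SPDEF (0.26), HOXB13 (0.17), EHF (0.12), FOXA1 (-0.04) and GRHL2 (-0.21) had intervals that held 0. Steady-state SPDEF lay on the DHT side of vehicle, and GATA2 lay on the other side. The steady-state, etoposide and merbarone comparisons share the DHT array.

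None of the 6 factors passed between sh-TOP2B and sh-control cells, in which the TOP2B difference did not pass either. The value of sh-TOP2B minus sh-control, averaged over vehicle and DHT, was 0.03 for HOXB13 (95% interval -0.23 to 0.30), 0.0041 for FOXA1 (-0.23 to 0.23) and 0.05 for EHF (-0.07 to 0.17). GATA2 was at -0.09 (-0.42 to 0.24), GRHL2 at -0.13 (-0.34 to 0.07) and SPDEF at -0.22 (-0.57 to 0.13). None of the 6 had an unadjusted p under 0.05 (7.01% of genes did), and 1.05% of genes were called. The interval of SPDEF holds a fall as large as that of EHF with merbarone. TOP2B was -0.45 with vehicle and -0.86 with DHT in the same arrays. The DHT response did not differ between sh-TOP2B cells and the other two backgrounds past the test for any factor. SPDEF had the largest value, 0.38 (95% interval -0.24 to 1.01). Over all genes limma called 0 for this difference, with 205 genes (1.73%) and none of the 6 factors at an unadjusted p under 0.05.

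Genes named as partners, relatives or products of the factors, from lists set with earlier results of these data known, were counted in the same fits. Of 16 epithelial junction and GRHL2-linked genes tested, 7 fell and 1 rose with merbarone (median -0.32, beside 0 over all genes, of which 16.3% were called lower). PROM2, a membrane protrusion protein, fell by 1.69 from 10.72 to 9.03, ERBB3, a receptor kinase gene, fell by 1.42 and ST14, which encodes matriptase, fell by 1.22. Housekeeping centring left 5 calls downward and 1 upward (median -0.03). CDH1, the gene of E-cadherin, read 13.04 with DHT and 12.97 with merbarone and did not pass. ESRP1, an epithelial splicing regulator, was the member that rose (0.67, named after its value was seen). No gene of this list passed with etoposide or DHT, where 1.05% and 0.447% of all genes were called. In steady state against vehicle 8 fell, beside 12.4% of all genes called lower, led by CLDN4 (-1.24) and PROM2 (-1.11), while GRHL2 itself was at -0.07. With housekeeping centring 4 fell there. Of 4 stromal markers tested, VIM (-1.69) and ACTA2 (-1.06) also fell in steady state against vehicle, while TAGLN (-0.24) and COL1A1 (0.14) did not pass, and their part in these counts was not tested.

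Of 13 luminal prostate products tested, 8 fell with merbarone (median -1.65), beside 16.3% of all genes called lower and a median of 0. Among the 8 were KLK3 (a difference of -5.40 or beyond), KLK2 (-3.20 or beyond) and SLC45A3 (-3.35), which encodes the membrane transporter prostein. Against the vehicle array, which had no DHT, the merbarone array differed by -0.12 for KLK3, -0.18 for KLK2 and -1.93 for SLC45A3. KLK2 was dim on both of these arrays (4.04 with vehicle, 3.86 with merbarone). KLK3 was barely above the array median with vehicle (5.68) and dim with merbarone (5.56). For KLK2 and KLK3 these small values therefore do not show that the levels were alike. A bound ("or beyond") has a dim level raised to its array's median. With DHT 6 of these 13 rose and 0 fell, where 0.447% of all genes were called. Among the 6 were KLK2, by at least 5.38, and TMPRSS2, a membrane protease gene, by 2.16. In sh-TOP2B cells MSMB, a secreted protein gene, was 3.70 higher than in sh-control cells and was the single call of the list (limma adjusted p = 0.000345). With etoposide KLK3 was the 1 that passed. Over all genes 1.05% were called in the knockdown comparison, and 1.05% with etoposide. Steady state against vehicle gave 8 higher and 3 lower calls, beside 15.7% and 12.4% of all genes, with AGR2, a secretory folding enzyme gene, at -2.76.

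Among 17 cofactors and partners of the steroid receptor, 3 fell and 2 rose with merbarone (median -0.14), a share near the 31.7% called over all genes. With housekeeping centring the split turned to 5 that rose and 2 that fell (median 0.15). KMT2D, a histone methyltransferase gene, fell by 1.25, NFIA, a nuclear factor I gene, fell by 1.08 and TLE3, a corepressor gene, fell by 1.04, though KMT2D did not pass with housekeeping centring (limma adjusted p = 0.0522). NFIA (-0.98) and FOXP1 (-0.85), a forkhead factor gene, fell with etoposide, though neither passed after a further quantile normalization (limma adjusted p = 0.0514 and 0.0575), and with merbarone FOXP1 rose by 0.88 (named after its value was seen). The direct difference of FOXP1 was -1.73, etoposide minus merbarone (limma adjusted p = 0.000376). FOXP1 and FOXA1 thus had values of opposite sign with merbarone.

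Among paralogs of the factors and neighbours of HOXB13, 3 genes passed with merbarone. ELF3, an epithelial ETS gene related to EHF, rose by 2.58 ± 0.21 with merbarone (limma adjusted p = 0.000521), from 9.49 to 12.07, where EHF fell by 0.46. ELF3 stood at 7.86 in steady state and 10.01 with vehicle, and fell by 2.15 in that comparison. HOXB9, a gene of the HOXB13 cluster, rose by 1.17 with merbarone, and ELF4 rose by 1.14. GRHL1, at 7.97 with DHT and 7.29 with merbarone, did not pass (-0.67, limma adjusted p = 0.0637), and GATA6 was at 0.42 (limma adjusted p = 0.175). The forkhead paralogs FOXA2 and FOXA3 were dim on all 9 arrays. Of 14 tested genes in this list 3 rose and 0 fell with merbarone, with a median of 0.14, and 3 of 14 is near the 15.4% of all genes called higher. With housekeeping centring 5 rose and 0 fell (median 0.43), so this count depends on the scaling.

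**Figure D5:**
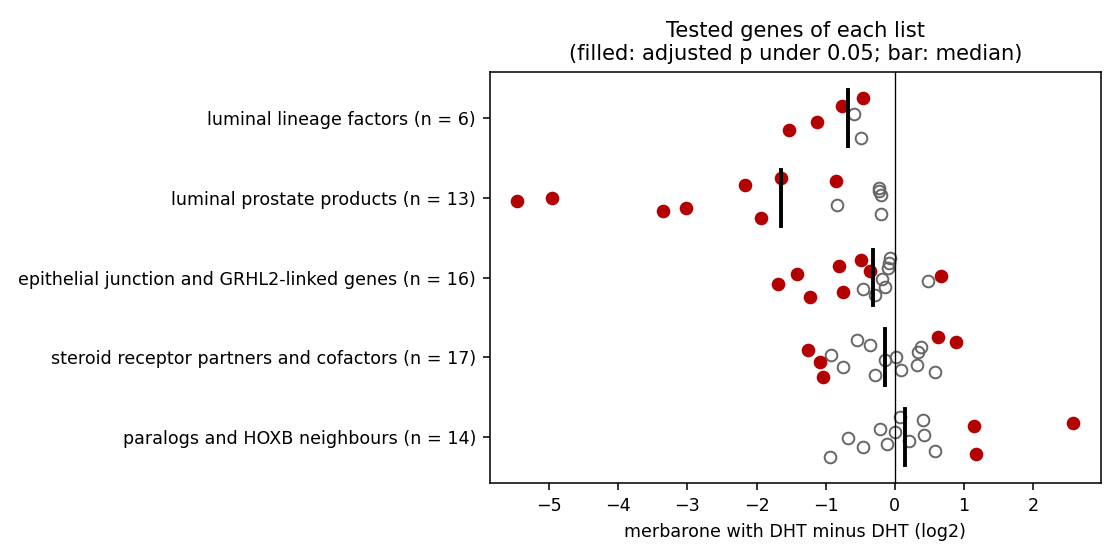
Merbarone and DHT minus DHT alone (x axis, log2) for each tested gene of the 5 groups on the y axis, filled where the adjusted p was under 0.05, with the median of a group as a black bar. The medians run from -1.65 for luminal products to 0.14 for paralogs and HOXB neighbours, and the 6 luminal lineage factors sit at -0.68.

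The genes with the most similar profile were found by the root mean square difference over the 9 arrays, after the mean of each series was taken out, as a description of these arrays only. For HOXB13 they were NETO1 (0.13) and DCAF13 (0.15), where HOXB13 itself varied by 0.53 on the same measure. NETO1 read 12.08 with DHT, 11.36 with etoposide and 10.61 with merbarone, stepping down as HOXB13 did. For GRHL2 they were RPS6KA6 (0.07) and CRELD2 (0.07), against a variation of 0.32. For SPDEF they were RAB4A (0.06) and PSD3 (0.12), against 0.33. RAB4A went from 11.43 to 12.10 and from 11.21 to 12.00 with DHT in the sorted pairs. For GATA2 they were CYTH3 (0.05) and PDSS2 (0.11), against 0.34. FOXA1 was nearest to MTDH (0.05) and ZNF514 (0.06), against 0.23, and EHF to TBK1 (0.04) and SMARCAD1 (0.05), against 0.16.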

How the data were processed

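Total RNA of 9 LNCaP groups was measured on 1 array each. The deposited values are log2 expression values made with RMA, per the submitters' processing notes. No RMA version or further step is named in what was read. RMA corrects background, makes array distributions alike and sums the probes of a probe set, which takes out any shift common to most genes. Probe sets were named from the platform annotation (41097 of 54675 had 1 symbol), and 41043 of these matched a RefSeq gene ID; some genes are not reported here. Members and lists were chosen with earlier results of these data known.

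Tests used R 4.3.3 with limma 3.58.1, two-sided, with Benjamini-Hochberg adjustment over 11865 genes and a threshold of 0.05. The additive model had a block for each of 3 backgrounds, 1 DHT effect and separate effects of steady state, etoposide and merbarone (2 residual and 4.62 prior degrees of freedom, trend on mean level). A single array was set against its reference array with an SE that assumes it varies like the paired arrays. The fit for a changed DHT response left 1 residual degree of freedom. Separate cultures are not stated, so the p-values describe the spread between these samples, which may be technical. The fit was tested on simulated data, with planted differences larger than any tested difference of the factors and noise drawn from the fit's own variance. That run does not cover differences of the sizes reported here, nor whether the borrowed spread holds for single arrays. All 7 members are named, with up to 3 called genes of each list per comparison, fixed paralogs and the 2 nearest profiles. Alternatives were other filters, normalizations, probe set rules and spreads. Intervals are 95%.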

Additional observations from a re-analysis of the deposited data

Results flagged for a closer look

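One probe set stood out for moving in opposite directions between the vectors. The second probe set of FOXA1 rose with DHT by 1.13 in sh-control cells and was at -0.64 in sh-TOP2B cells, and sh-TOP2B minus sh-control was 0.61 with vehicle and -1.16 with DHT. It was picked because both values were at least 0.5 in size and of opposite sign; the difference was not tested. The brighter FOXA1 probe set had 0.05 and -0.08 for the same DHT pairs, and the dimmer one ranged from 6.56 to 7.72 on these 4 arrays.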

How the results depend on the processing

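Of 462 values of the 6 factors under the alternatives, 418 kept their direction and side of the threshold, 20 passed where they had not, 7 no longer passed and 17 took the other sign. The count of 418 includes directions that could not change. A difference between 2 single arrays stays the same under other filters, without the trend or with a pair left out. Counts of called genes moved most. With no filter, DHT called 20 genes and etoposide 56; with no intensity trend they called 5 and 0 and the knockdown 81; with the median over probe sets DHT called 35. Etoposide called 192 with the stricter filter, 72 after quantile normalization, 76 with housekeeping centring and 232 with the DHT level fitted from all pairs. Leaving out 1 pair at a time gave 1 to 2627 calls for DHT (0 to 4 factors), 1918 to 4551 for steady state against DHT (0 to 1 factors), 0 to 1336 for etoposide (0 to 2 factors), 0 to 2 factors for steady state against vehicle, and 315 calls for the knockdown without the untransfected pair. Housekeeping centring, chosen after seeing the data, gave 2 factors past the test for steady state against vehicle and 1 against DHT. It moved the share of calls that were higher from 48.5% to 75.1% for merbarone, from 20.2% to 39.5% for etoposide, from 55.7% to 70.3% for steady state against vehicle, from 54.2% to 69.6% against DHT and from 41.4% to 28.5% for etoposide against merbarone. Centring on 100 control probe sets moved it from 94.3% to 82.8% for DHT, to 45.1% for steady state against vehicle and to 32.2% for etoposide. Steady state against vehicle read 0.0044 for HOXB13 after quantile normalization, 0.14 for HOXB13 and 0.076 for GRHL2 with housekeeping centring, and -0.15 for EHF with the median over probe sets. Steady state against DHT read 0.063 (median over probe sets) and 0.11 (housekeeping) for FOXA1 and -0.035 (median) for EHF. Etoposide read 0.11 (median) and 0.028 (housekeeping) for FOXA1, and -0.11 (median) and -0.033 (fitted DHT level) for SPDEF. Etoposide against merbarone read -0.22 (median) for GATA2. The knockdown read -0.073 (median) for HOXB13 and -0.14 (median) and -0.023 (housekeeping) for FOXA1. With the 100 control probe sets the change of the DHT response read 0.014 for FOXA1 and 0.050 for GRHL2. The cause was not tested. The DHT test is itself paired, with each vehicle and DHT pair as a block; the labels give 1 array a group, so no other pairing was tried. With 1 array a group, the number of arrays limits the precision.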
